A study of Homo sapiens with 12 samples.

Results

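Cytochromes P450, UDP-glucuronosyltransferases, sulfotransferases and glutathione transferases form the main enzyme system for foreign chemicals, steroids and oxidised lipids. The members described here are the probe sets whose gene symbol in the array annotation starts with CYP and a number, UGT1A, UGT2, SULT and a number, or GSTA, GSTK, GSTM, GSTO, GSTP, GSTT or GSTZ, with the sterol synthesis enzyme CYP51A1 left out. These were 85 probe sets of 83 genes among 17687 named genes. They comprised 50 cytochrome P450 genes (CYP21A1P, a pseudogene, among them), 7 UGT2B genes, 10 sulfotransferases and 16 glutathione transferases. No probe set in use carried a UGT1A symbol, so the UGT1A family, UGT1A6 included, was not analysed here. GSTT2 and CYP2D6 had 2 probe sets each and every other gene had 1.

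The samples were 12 arrays of isogenic lines made in MCF-10A, a line of breast epithelial cells of human origin that does not form tumours, with 4 cultures in each of 3 groups. HER2-mutant cultures carried HER2 L755S, PIK3CA-mutant cultures carried PIK3CA E545K, and co-cultures held both lines, at about 75% HER2-mutant and 25% PIK3CA-mutant cells at harvest by droplet digital PCR. All 3 groups grew in medium with physiologic EGF, received no other treatment and were harvested between day 7 and day 14. The design compares each line alone with the other and with the mixture. The labels name 1 line per mutation and no unmutated MCF-10A culture was analysed here, so the mutation and the line that carries it cannot be told apart. ERBB2 and PIK3CA were not analysed here, and expression would not show a point mutation in any case.

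In the first phase of this metabolism a P450 inserts oxygen into a lipophilic substrate, with electrons from P450 reductase or, in mitochondria, from adrenodoxin. In the second phase a transferase adds glucuronic acid, sulfate or glutathione, and the conjugate leaves through ABC transporters. The liver carries the broadest set, while epithelia outside it use selected members, several of which act on estrogens, vitamin D, retinoic acid, fatty acids or ascorbate rather than on drugs.

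Each value is a log2 probe-set signal, so a difference of 1 is a doubling. A probe set was counted as above background in a group where it exceeded the 95th percentile of the 612 negative control probe sets of its own array on at least 3 of 4 arrays. That percentile was 6.73 to 7.12 on the HER2-mutant arrays, 6.32 to 6.39 on the PIK3CA-mutant arrays and 6.37 to 6.66 on the co-culture arrays. The bar was thus highest in the HER2-mutant group, and its part in the counts per group was not tested. Median signals lay between 6.41 and 6.49 on every array. The epithelial identity of the cultures was borne by all 4 measured basal markers and all 6 general epithelial markers, which were above background in every group. None of 8 hepatocyte markers and none of 6 blood and endothelial markers was above background in any group. Of 5 intestinal markers APOA4 alone was, at 7.21 to 7.40 in the group means. Of 6 measured fibroblast markers COL1A2 and DCN were above background in all 3 groups and COL1A1 in the PIK3CA-mutant group. COL1A1 means were 6.56, 6.48 and 6.41 in the HER2-mutant, PIK3CA-mutant and co-culture groups, so the group where it passed did not have the highest signal. DCN had mean signals of 10.70, 7.07 and 8.03 in the HER2-mutant, PIK3CA-mutant and co-culture groups, whereas PDGFRA, PDGFRB and LUM stayed at or below 4.31. The part of these markers in the results was not tested.

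Most of the set was below what the arrays resolve. Of the 83 genes, 14 were above background in the HER2-mutant group, 16 in the PIK3CA-mutant group, 13 in the co-culture and 20 in at least 1 group. The members' shares were 16.9%, 19.3%, 15.7% and 24.1%, beside 44.8%, 50.3%, 48.9% and 51.5% of all named probe sets. By family, 10 of 50 P450s, 8 of 16 glutathione transferases, 2 of 10 sulfotransferases and 0 of 7 UGT2B genes were above background in some group. In all 3 groups, 9 genes passed, namely the P450s CYP2R1, CYP2U1 and CYP4V2, the transferases GSTK1, GSTM4, GSTO1, GSTP1 and GSTT2, and the sulfotransferase SULT1E1. The HER2-mutant group alone had CYP1B1, CYP39A1, CYP3A5 and CYP4B1. The PIK3CA-mutant group alone had CYP2J2 and CYP4F11. GSTA4 passed in both single cultures, and CYP20A1, GSTO2, GSTZ1 and SULT1A1 passed in the PIK3CA-mutant group and the co-culture.

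**Figure D1:**
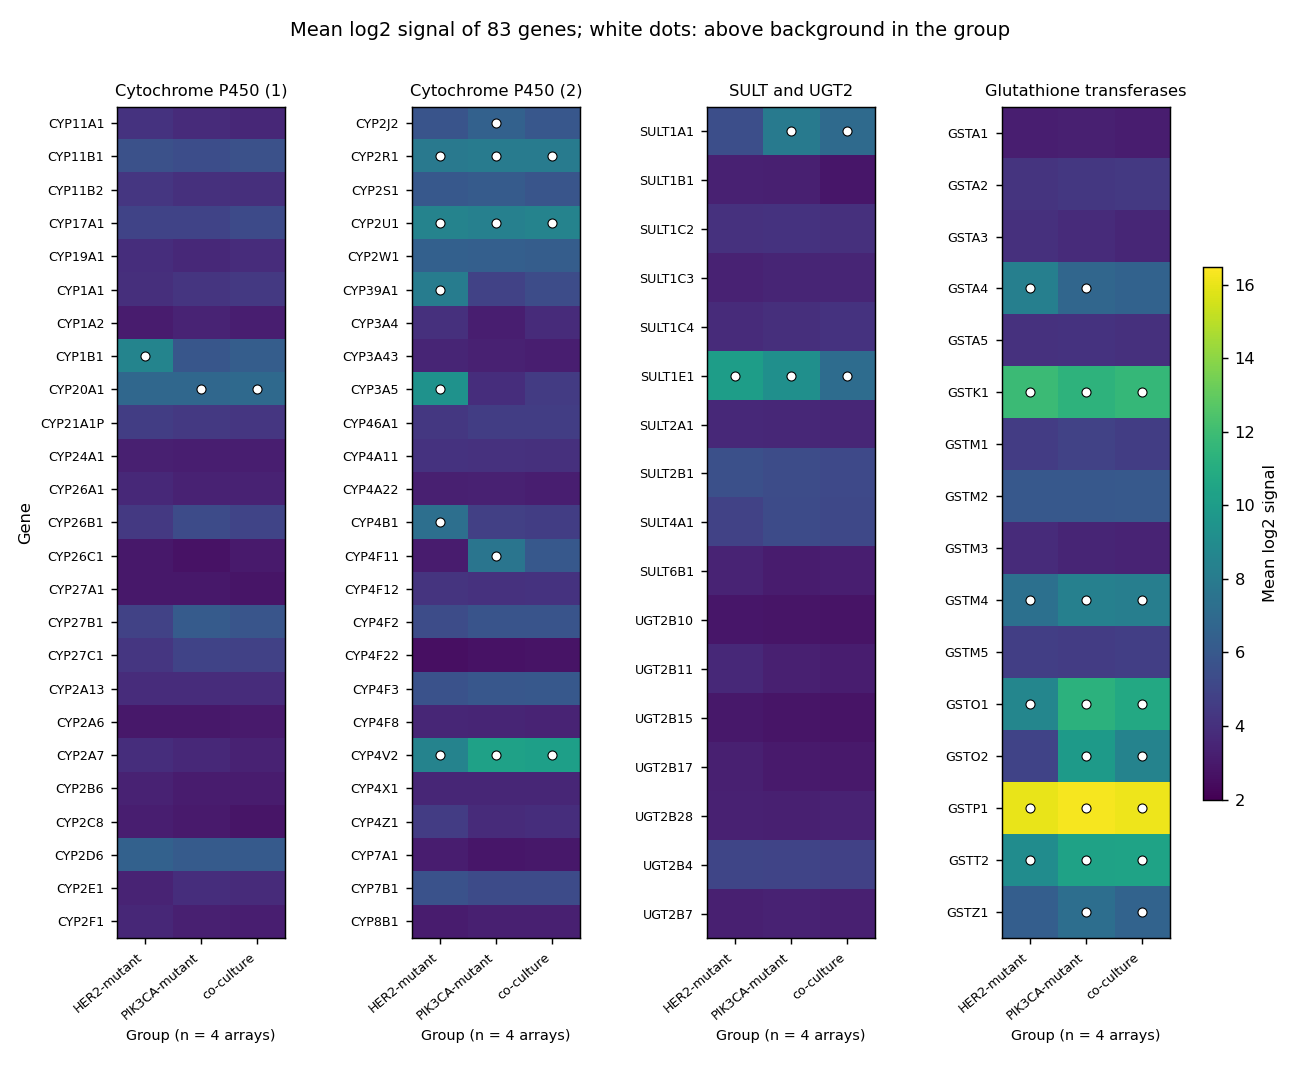
Colour gives the mean log2 signal (n = 4 arrays per group) of each of the 83 genes, with families in columns and the 3 culture groups along the x axis, and a white dot marks a gene above background in that group. Dots appear on 20 genes, 10 of them P450s and 8 glutathione transferases, and on no UGT2B gene.

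The other 63 genes passed in no group, and 58 of them were above background on 0 of the 12 arrays. CYP27B1, CYP2D6, CYP2S1, CYP2W1 and GSTM2 passed on some arrays without reaching 3 in any group. Among the P450s, these unresolved genes held the steroid-forming enzymes CYP11A1, CYP11B1, CYP11B2, CYP17A1 and CYP19A1 (aromatase) and the pseudogene CYP21A1P. They also held members of the drug-oxidising families, CYP1A1, CYP1A2, CYP2A13, CYP2A6, CYP2A7, CYP2B6, CYP2C8, CYP2D6, CYP2E1, CYP2F1, CYP2S1, CYP2W1, CYP3A4 and CYP3A43. The sterol and bile acid enzymes CYP7A1, CYP7B1, CYP8B1, CYP27A1 and CYP46A1 belonged here too, as did the vitamin D enzymes CYP27B1 and CYP24A1 and the retinoid enzymes CYP26A1, CYP26B1, CYP26C1 and CYP27C1. So did the family 4 genes CYP4A11, CYP4A22, CYP4F12, CYP4F2, CYP4F22, CYP4F3, CYP4F8, CYP4X1 and CYP4Z1. The 40 P450s of this kind had signals from 2.27 to 6.82 over all arrays.

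The 8 glutathione transferases below background were GSTA1, GSTA2, GSTA3, GSTA5, GSTM1, GSTM2, GSTM3 and GSTM5, with signals of 2.90 to 6.47. The 8 sulfotransferases were SULT1B1, SULT1C2, SULT1C3, SULT1C4, SULT2A1, SULT2B1, SULT4A1 and SULT6B1, with signals of 2.75 to 6.0. The 7 UGT2B genes, UGT2B4, UGT2B7, UGT2B10, UGT2B11, UGT2B15, UGT2B17 and UGT2B28, glucuronidate steroids and bile acids and had signals of 2.50 to 5.38. CYP1A1, the textbook target of the aryl hydrocarbon receptor, had mean signals of 3.96 ± 0.20, 4.25 ± 0.30 and 4.40 ± 0.35 (SD, n = 4 each) in the HER2-mutant, PIK3CA-mutant and co-culture groups. CYP24A1, the vitamin D 24-hydroxylase, was at 3.26 ± 0.26, 3.21 ± 0.07 and 3.22 ± 0.26 (SD, n = 4 each) in the same order. CYP26A1, which clears retinoic acid, was at 3.65 ± 0.37, 3.37 ± 0.28 and 3.39 ± 0.31 (SD, n = 4 each). GSTM3 was at 3.79 ± 0.13, 3.52 ± 0.20 and 3.47 ± 0.04, and SULT2B1, a cholesterol sulfotransferase of epithelia, at 5.55 ± 0.41, 5.36 ± 0.32 and 5.22 ± 0.13 (SD, n = 4 each). None of these 5 genes exceeded the negative controls on 3 arrays of a group, so their differences between groups carry no reading. A signal below background says only that the transcript was not resolved, not that it was absent.

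Between the single cultures, 41 of the 83 genes passed the filter on dim probe sets and were tested, and 21 of these differed in limma at a Benjamini-Hochberg adjusted p under 0.05. In HER2-mutant cells 7 of them were higher and 14 lower. Across the 12758 genes tested, 59.5% differed, with 30% higher and 29.5% lower, so differences between the lines were common throughout the transcriptome. At a difference of at least 1 on the log2 scale, 5 members were higher and 7 lower, beside 9.01% and 12.3% of all genes. The median difference was -0.18 over the 41 members tested and 0.05 over all genes. Among the 20 genes above background in some group, 7 were higher and 10 lower, and 3 did not pass. Some of these 20 passed the bar only in the line where they were brighter, which favours a difference. No share of all genes under the same bar was computed, so this count carries no reading about the set. Of the members called, CYP26B1, CYP27B1, CYP27C1 and SULT4A1 were below background in both lines. The labels do not give the harvest day of each culture, so harvest and group cannot be told apart, and p-values measure only the spread between these cultures, which may be technical.

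**Figure D2:**
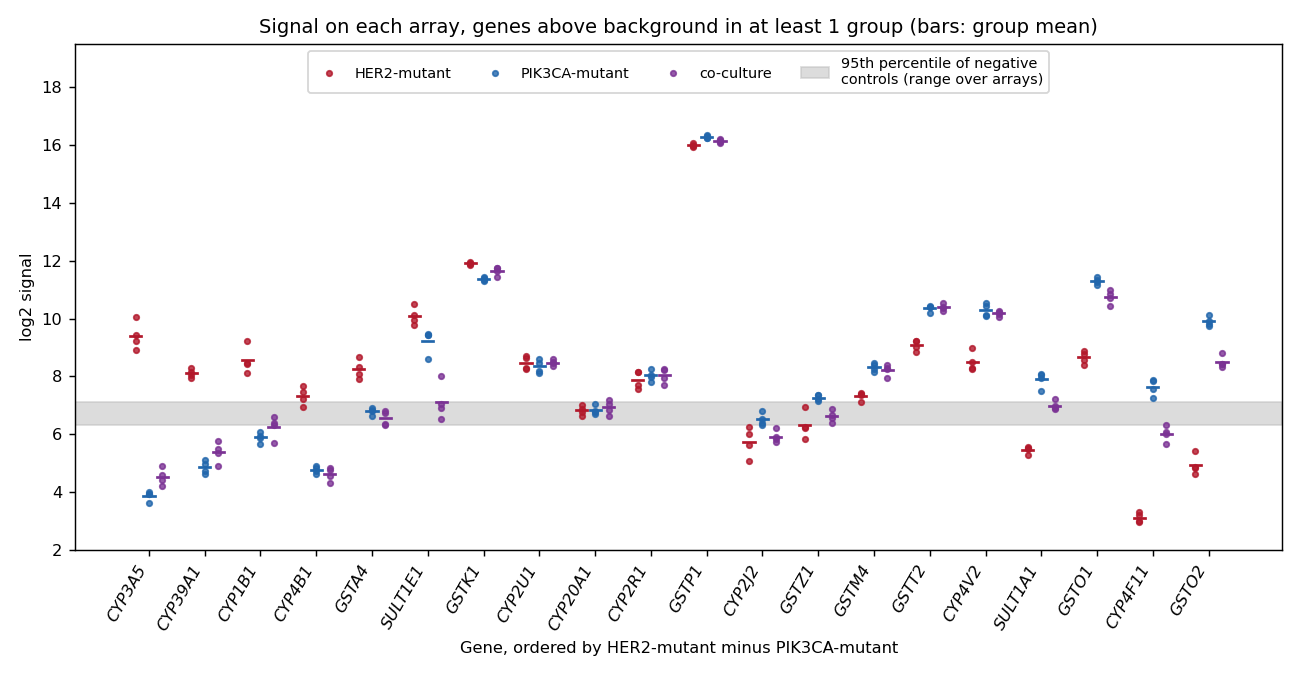
Points give the log2 signal of each array for the 20 genes above background in at least 1 group, coloured by group, with a bar at each group mean, and the grey band spans the 95th percentile of the negative controls over the 12 arrays. CYP3A5 in the HER2-mutant group (8.91 to 10.04) and GSTO2 in the PIK3CA-mutant group (9.73 to 10.14) stand far above the arrays of the opposite line.

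Of the P450s, CYP3A5, CYP39A1, CYP1B1 and CYP4B1 were higher in the HER2-mutant line. CYP3A5, a drug and steroid oxidase expressed outside the liver as well as in it, had signals of 8.91, 10.04, 9.43 and 9.21 on the HER2-mutant arrays, 3.61, 3.92, 4.01 and 3.93 on the PIK3CA-mutant arrays and 4.22, 4.42, 4.90 and 4.60 in the co-cultures. All 4 HER2-mutant arrays stood clear of the other 8, which were below background. The HER2-mutant mean was 9.40 ± 0.48 against 3.87 ± 0.18 (SD, n = 4), a fold of at least 8.22 over the PIK3CA-mutant background level (limma adjusted p = 1.66e-16). Such a bound sets the bright group's mean against the dim group's own 95th percentile of negative controls, because the dim signal is not a measured level. The near relatives CYP3A4 and CYP3A43 were below background in every group.

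CYP39A1 hydroxylates 24-hydroxycholesterol on the way to bile acids. Its HER2-mutant signals were 7.96, 8.05, 8.14 and 8.29, its PIK3CA-mutant signals 4.74, 4.62, 4.97 and 5.12 and its co-culture signals 5.48, 5.36, 4.89 and 5.78. The HER2-mutant group did not overlap either of the others, and it was at least 3.36-fold above the PIK3CA-mutant group (means 8.11 ± 0.14 and 4.86 ± 0.23, SD, n = 4, limma adjusted p = 2.75e-13). CYP1B1, an extrahepatic P450 that oxidises estradiol and aromatic hydrocarbons and is induced through the aryl hydrocarbon receptor, gave 8.13, 8.47, 8.42 and 9.23 in the HER2-mutant group. It gave 5.94, 5.67, 6.07 and 5.86 in the PIK3CA-mutant group and 6.30, 5.71, 6.59 and 6.40 in the co-culture, where 1 array of 4 was above background. The HER2-mutant mean of 8.56 ± 0.47 was at least 4.61-fold above the PIK3CA-mutant group, whose mean was 5.89 ± 0.17 (SD, n = 4, limma adjusted p = 1.38e-10). CYP4B1 is an extrahepatic enzyme that oxidises fatty acids and small protoxins. It was above background on 3 of 4 HER2-mutant arrays, with signals of 6.94, 7.20, 7.66 and 7.47. Its PIK3CA-mutant signals of 4.84, 4.73, 4.90 and 4.63 and its co-culture signals of 4.55, 4.31, 4.83 and 4.76 were all below background, so the HER2-mutant mean was at least 1.95-fold higher than in the PIK3CA-mutant group (means 7.32 ± 0.32 and 4.77 ± 0.12, SD, n = 4, limma adjusted p = 1.18e-11).

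The family 4 enzymes CYP4F11 and CYP4V2 went the other way. CYP4F11, an omega-hydroxylase of long-chain 3-hydroxy fatty acids and vitamin K, had PIK3CA-mutant signals of 7.55, 7.85, 7.26 and 7.88, HER2-mutant signals of 3.30, 3.20, 3.00 and 2.96 and co-culture signals of 6.31, 6.08, 5.67 and 6.01. The 3 groups formed separate ranges, with background lying above the co-culture. The PIK3CA-mutant mean of 7.64 ± 0.29 was at least 1.60-fold above the HER2-mutant group, whose mean was 3.11 ± 0.16 (SD, n = 4, limma adjusted p = 3.85e-16). That bound is small because the background level of the HER2-mutant arrays was close to the PIK3CA-mutant signal. CYP4V2, the fatty acid omega-hydroxylase altered in Bietti crystalline dystrophy, was above background throughout. Its signals were 8.51, 8.26, 8.97 and 8.30 in the HER2-mutant group, 10.13, 10.55, 10.42 and 10.10 in the PIK3CA-mutant group and 10.15, 10.24, 10.06 and 10.26 in the co-culture. The co-culture and PIK3CA-mutant arrays overlapped and the HER2-mutant arrays lay below both. CYP4V2 was 3.46-fold higher in the PIK3CA-mutant line (log2 difference -1.79, SE 0.14, limma adjusted p = 2.4e-10).

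The remaining P450s above background were CYP2J2, CYP2R1, CYP2U1 and CYP20A1. CYP2J2, an epoxygenase of arachidonic acid, was above background on 3 of 4 PIK3CA-mutant arrays and on no other array. Its mean was 6.51 ± 0.22 there against 5.74 ± 0.52 in the HER2-mutant group and 5.92 ± 0.22 in the co-culture (SD, n = 4). The call between the lines (limma adjusted p = 0.00253) comes with no bound, since the HER2-mutant background level lies above the PIK3CA-mutant signal. CYP2R1, the main vitamin D 25-hydroxylase, had means of 7.89 ± 0.31, 8.03 ± 0.19 and 8.03 ± 0.26 in the HER2-mutant, PIK3CA-mutant and co-culture groups (SD, n = 4). CYP2U1, which hydroxylates arachidonic acid, had means of 8.48 ± 0.24, 8.34 ± 0.23 and 8.47 ± 0.10 in the same order. CYP20A1, a P450 without an established substrate, was at 6.82 ± 0.16, 6.84 ± 0.16 and 6.93 ± 0.24, above background on 2 of the 4 HER2-mutant arrays. All 3 genes overlapped between every pair of groups. The 95% intervals of HER2-mutant minus PIK3CA-mutant on the log2 scale were -0.49 to 0.21 for CYP2R1, -0.17 to 0.43 for CYP2U1 and -0.34 to 0.31 for CYP20A1.

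Among the glutathione transferases the omega class had the largest fitted differences. GSTO1 and GSTO2 reduce dehydroascorbate and lie next to each other on chromosome 10. GSTO2 had PIK3CA-mutant signals of 9.73, 10.14, 9.81 and 9.92, HER2-mutant signals of 5.43, 4.62, 4.84 and 4.86 and co-culture signals of 8.80, 8.32, 8.42 and 8.43. Every PIK3CA-mutant array was above every co-culture array, and no HER2-mutant array was above background. The PIK3CA-mutant mean of 9.90 ± 0.18 was at least 7.66-fold above the HER2-mutant group, whose mean was 4.94 ± 0.35 (SD, n = 4, limma adjusted p = 3.53e-17). GSTO1 was expressed in both lines, with signals of 8.76, 8.40, 8.57 and 8.88 in the HER2-mutant group, 11.43, 11.16, 11.35 and 11.27 in the PIK3CA-mutant group and 11.00, 10.84, 10.45 and 10.70 in the co-culture. The 3 ranges did not overlap. GSTO1 was 6.28-fold higher in the PIK3CA-mutant line (log2 difference -2.65, SE 0.13, limma adjusted p = 1.67e-14).

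Sequences before the starts are shown for the 5 members with a promoter window that had the largest fitted differences between the lines, namely GSTO2, CYP3A5, CYP4F11, CYP39A1 and GSTO1, and for GSTP1, which was 1.21-fold apart. Glutathione transferase genes are textbook examples of genes with antioxidant response elements. RefSeq promoter windows on GRCh38.p14 run from 250 bases before to 50 after each start, and 62 of the 83 members matched, among them 17 of the 20 above background. CYP1B1, GSTT2 and SULT1A1 had no window, so the motif shares below do not cover them. The 250 bases before the start are printed on the strand of the gene, 5′ to 3′, and capitals mark matches to TGACNNNGC, the core of the antioxidant response element, on either strand. GSTO1 is at chr10:104254642-104254891 (+), GSTO2 at chr10:104268934-104269183 (+), CYP4F11 at chr19:15934868-15935117 (-), GSTP1 at chr11:67583562-67583811 (+), CYP3A5 at chr7:99679997-99680246 (-) and CYP39A1 at chr6:46652819-46653068 (-).
GSTO1: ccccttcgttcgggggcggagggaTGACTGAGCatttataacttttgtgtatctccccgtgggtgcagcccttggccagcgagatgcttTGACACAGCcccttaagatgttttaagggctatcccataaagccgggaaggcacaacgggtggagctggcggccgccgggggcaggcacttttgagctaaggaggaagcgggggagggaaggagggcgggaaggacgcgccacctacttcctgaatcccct
GSTO2: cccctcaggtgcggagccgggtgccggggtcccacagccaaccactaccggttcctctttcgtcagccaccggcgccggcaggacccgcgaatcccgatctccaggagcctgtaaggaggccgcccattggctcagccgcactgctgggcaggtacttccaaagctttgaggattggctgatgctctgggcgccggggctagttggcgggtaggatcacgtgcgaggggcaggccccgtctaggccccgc
CYP4F11: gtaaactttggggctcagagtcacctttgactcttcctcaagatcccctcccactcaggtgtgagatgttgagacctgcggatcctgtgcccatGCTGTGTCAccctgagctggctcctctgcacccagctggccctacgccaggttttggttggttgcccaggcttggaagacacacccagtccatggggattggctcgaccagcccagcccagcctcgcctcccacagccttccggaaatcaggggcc
GSTP1: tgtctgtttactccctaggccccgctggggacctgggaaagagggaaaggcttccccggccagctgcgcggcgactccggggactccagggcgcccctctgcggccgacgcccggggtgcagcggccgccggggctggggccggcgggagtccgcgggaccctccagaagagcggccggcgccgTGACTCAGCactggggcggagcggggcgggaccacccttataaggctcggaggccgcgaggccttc
CYP3A5: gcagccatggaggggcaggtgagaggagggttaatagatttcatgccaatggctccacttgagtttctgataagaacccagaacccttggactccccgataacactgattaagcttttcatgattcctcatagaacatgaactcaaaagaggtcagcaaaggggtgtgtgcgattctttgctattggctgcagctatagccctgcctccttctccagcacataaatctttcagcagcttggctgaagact
CYP39A1: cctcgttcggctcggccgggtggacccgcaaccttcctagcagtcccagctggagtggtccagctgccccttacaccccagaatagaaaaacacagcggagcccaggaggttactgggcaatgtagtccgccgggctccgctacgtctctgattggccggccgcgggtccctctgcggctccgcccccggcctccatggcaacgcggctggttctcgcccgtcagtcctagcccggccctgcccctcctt
GSTO1 held 2 matches, which begin 226 and 161 bases before the start, and GSTP1 held 1 that begins 66 bases before it. CYP4F11 held 1 match on the opposite strand, so its capitals read as the reverse complement. The printed windows of GSTO2, CYP3A5 and CYP39A1 held none. TGACNNNGC occurred in 22.7% of the 22 windows of members above background and in 13.3% of all 35116 windows. GCGTG, the core of the aryl hydrocarbon receptor element, occurred on either strand in 31.8% of those 22 windows and in 36.5% of all windows, and in none of the 6 printed. GSTO2 and CYP4F11 each have another window that is not printed. The unprinted window of GSTO2 held a GCGTG match, and that of CYP4F11 held no TGACNNNGC. Both motifs are short and such matches are a description of the letters only.

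The other transferases above background moved less. GSTA4, which conjugates the lipid peroxidation product 4-hydroxynonenal, was the glutathione transferase most raised in the HER2-mutant line, with signals of 8.07, 8.68, 7.90 and 8.34. The PIK3CA-mutant signals were 6.85, 6.62, 6.80 and 6.91 and the co-culture signals 6.30, 6.34, 6.74 and 6.80, of which 2 were above background. GSTA4 was 2.74-fold higher in the HER2-mutant line (log2 difference 1.45, SE 0.17, limma adjusted p = 1.51e-07). GSTT2, of the theta class, gave 8.86, 9.02, 9.22 and 9.24 in the HER2-mutant group, 10.20, 10.45, 10.40 and 10.41 in the PIK3CA-mutant group and 10.41, 10.35, 10.54 and 10.25 in the co-culture. It was 2.43-fold higher in the PIK3CA-mutant line (log2 difference -1.28, SE 0.11, limma adjusted p = 1.38e-09), and its second probe set gave a log2 difference of -2.03. GSTM4, of the mu class, had means of 7.33 ± 0.14, 8.32 ± 0.14 and 8.23 ± 0.19 in the HER2-mutant, PIK3CA-mutant and co-culture groups (SD, n = 4) and was 1.99-fold higher in the PIK3CA-mutant line (limma adjusted p = 1.97e-06).

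GSTZ1, the maleylacetoacetate isomerase of tyrosine breakdown, was at 7.26 ± 0.11 in the PIK3CA-mutant group and 6.31 ± 0.47 in the HER2-mutant group, where no array was above background (SD, n = 4). Its PIK3CA-mutant mean was at least 1.23-fold higher (limma adjusted p = 0.000153). GSTK1, the kappa-class enzyme of mitochondria and peroxisomes, was at 11.91 ± 0.04 in the HER2-mutant group and 11.36 ± 0.06 in the PIK3CA-mutant group (SD, n = 4), 1.46-fold higher in the former (limma adjusted p = 1.24e-05). GSTP1, the pi-class enzyme typical of basal breast epithelium, was bright on every array. Its signals were 15.94, 15.97, 16.01 and 16.07 in the HER2-mutant group and 16.23, 16.30, 16.23 and 16.35 in the PIK3CA-mutant group, without overlap but only 1.21-fold apart (log2 difference -0.28, SE 0.06, limma adjusted p = 0.000178).

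The sulfotransferases above background were SULT1A1 and SULT1E1. SULT1A1, which sulfates small phenols, had HER2-mutant signals of 5.27, 5.53, 5.48 and 5.57, all below background, PIK3CA-mutant signals of 8.09, 7.96, 8.06 and 7.51 and co-culture signals of 7.20, 6.86, 6.92 and 6.96. The 3 ranges did not overlap. The PIK3CA-mutant mean of 7.90 ± 0.27 was at least 1.92-fold above the HER2-mutant group, whose mean was 5.46 ± 0.13 (SD, n = 4, limma adjusted p = 4.62e-12). SULT1E1, which inactivates estrogens by sulfation, had signals of 9.94, 10.50, 9.77 and 10.13 in the HER2-mutant group and 9.46, 9.42, 8.59 and 9.44 in the PIK3CA-mutant group. It was 1.81-fold higher in the HER2-mutant line (log2 difference 0.86, SE 0.24, limma adjusted p = 0.00386). Several of these genes have near-identical relatives, in particular GSTT2 and GSTT2B, the SULT1A genes, the GSTM and GSTA clusters, the CYP4F and CYP3A clusters and the UGT2B genes, so the source of a probe set's signal within such a cluster is uncertain.

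**Figure D3:**
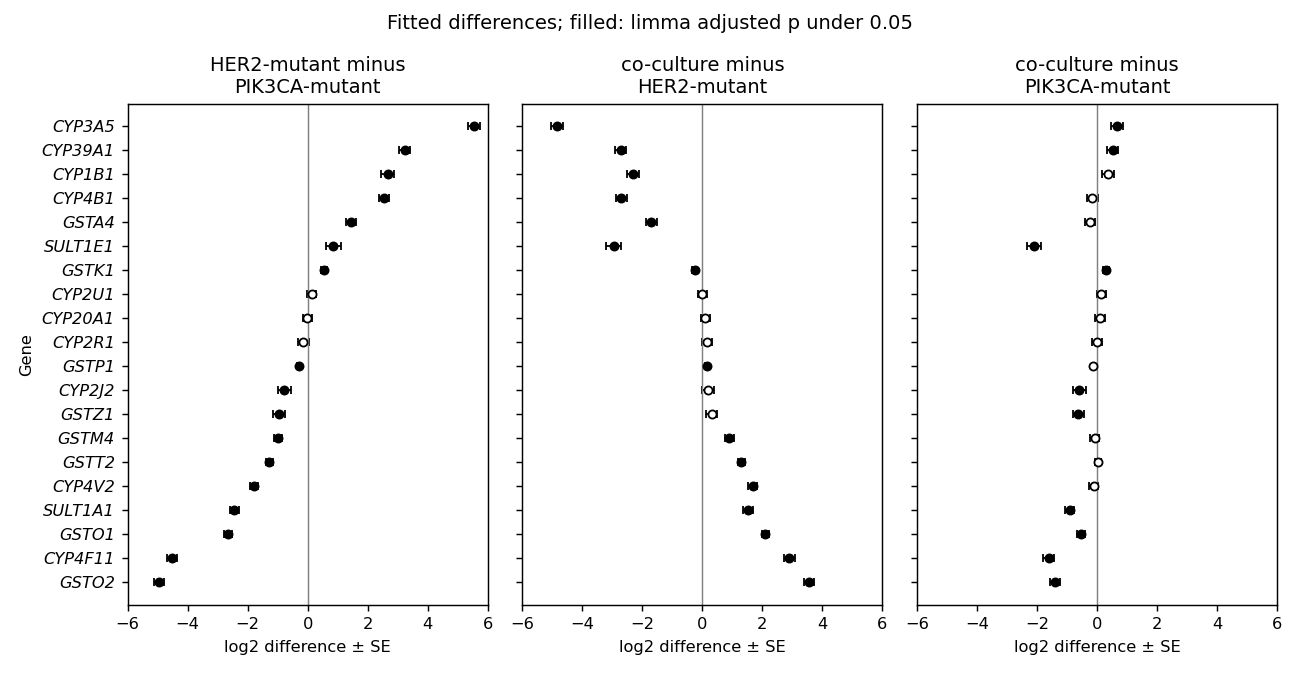
Points give the fitted log2 difference with its standard error (x axis) for the same 20 genes (y axis) in the 3 pairwise comparisons, and filled points passed a limma adjusted p of 0.05. CYP3A5 stands at 5.53 and GSTO2 at -4.96 in HER2-mutant minus PIK3CA-mutant, and SULT1E1 is at -2.96 and -2.10 in the co-culture comparisons, while differences against a group below background are fitted values and no measured folds.

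The co-culture was compared with each line alone, which asks whether a mixture of mostly HER2-mutant cells carries the HER2-mutant pattern. Against the HER2-mutant group, 18 members were called in limma, 11 higher and 7 lower in the co-culture, beside 24.9% and 26.0% of all 12758 genes and 51.0% in either direction. At a difference of at least 1 on the log2 scale, 6 members were higher and 6 lower, beside 8.59% and 5.40% of all genes. CYP26B1, CYP27B1, CYP27C1 and CYP4F11, all among the 11 higher, were below background in both groups. The 7 lower were CYP1B1, CYP39A1, CYP3A5, CYP4B1, GSTA4, GSTK1 and SULT1E1. This comparison shares the HER2-mutant arrays with the one between the lines. In bulk RNA alone, fewer cells of one kind and less RNA per cell cannot be told apart. The stated shares of about 75% and 25% enter the comparison with a blend below, and the cause of a difference was not tested.

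CYP3A5 was at 4.54 ± 0.29 in the co-culture (SD, n = 4), below background on every array, so the HER2-mutant group was at least 7.30-fold higher (limma adjusted p = 3.1e-15). CYP39A1 was at 5.38 ± 0.37 and at least 2.99-fold lower than in the HER2-mutant group (SD, n = 4, limma adjusted p = 1.08e-11). CYP4B1 was at 4.62 ± 0.24 and at least 1.73-fold lower (SD, n = 4, limma adjusted p = 6.78e-12). These oxidases of sterols, drugs and fatty acids were thus not resolved in the mixture. CYP1B1 differed by -2.31 on the log2 scale (limma adjusted p = 2.92e-09) and GSTA4 by -1.70 (limma adjusted p = 2.02e-08). These are fitted values and no measured folds, since CYP1B1 was above background on 1 and GSTA4 on 2 of the 4 co-culture arrays. Upward, GSTO1 was 4.28-fold (limma adjusted p = 2.26e-12), CYP4V2 3.19-fold (1.32e-09), GSTT2 2.47-fold (1.74e-09) and GSTM4 1.87-fold (1.08e-05) above the HER2-mutant level in the co-culture. GSTO2 was at least 2.89-fold higher (2.84e-14) and SULT1A1 at least 1.02-fold higher (2.63e-08). GSTK1 was 1.20-fold lower in the co-culture (adjusted p = 0.0177), a call lost without co-culture replicate 1 (0.0804). GSTP1 was 1.11-fold higher (adjusted p = 0.0354), a call lost without HER2-mutant replicate 1 (0.0965) or 2 (0.0776), without co-culture replicate 2 (0.088) or 4 (0.0905), and after quantile normalization (0.157) or median centring (0.336).

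SULT1E1 was the 1 member of the set that was called below both lines in the co-culture. Its co-culture signals were 8.01, 6.53, 6.90 and 7.06, every one below the lowest PIK3CA-mutant array (8.59) and the lowest HER2-mutant array (9.77). The co-culture mean of 7.13 ± 0.63 was 7.78-fold below the HER2-mutant mean of 10.09 ± 0.31 (log2 difference -2.96, SE 0.24, limma adjusted p = 4.86e-10) and 4.29-fold below the PIK3CA-mutant mean of 9.23 ± 0.43 (log2 difference -2.10, SE 0.24, limma adjusted p = 8.77e-07, SD, n = 4 each). Co-culture replicate 1 was the highest of its group, and without it the differences were -3.26 and -2.40. Of all 12758 genes, 2.05% were called below both single cultures and 2.07% above both. No member was called above both, and 7 members were called against both lines with the co-culture in between. The share of all genes in between was not computed. Of the 7, CYP3A5, CYP39A1 and CYP4F11 were below background on every co-culture array, so their place between the lines was not measured.

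Against the PIK3CA-mutant group, 10 members were called in limma, 3 higher and 7 lower in the co-culture, beside 11.1% and 14.6% of all genes and 25.7% in either direction. No member was higher by at least 1 on the log2 scale, and 3 were lower by that much, beside 1.48% and 1.95% of all genes. Of the 3 higher, CYP3A5 and CYP39A1 were below background in both groups, and GSTK1 was 1.22-fold higher in the co-culture (adjusted p = 0.0191). Besides SULT1E1, the lower members included GSTO2, 2.65-fold lower (limma adjusted p = 1.44e-06), and CYP4F11, at least 2.16-fold lower (limma adjusted p = 3.62e-07). SULT1A1 was 1.89-fold (0.00012), GSTZ1 1.55-fold (0.0155) and GSTO1 1.47-fold (0.00208) lower. CYP2J2 was called as well (0.0373), with no co-culture array above background and no bound. The call for GSTK1 was lost without PIK3CA-mutant replicate 3 (0.0548) or co-culture replicate 2 (0.069) or 3 (0.0674), and that for GSTZ1 without co-culture replicate 4 (0.056). For CYP2J2, leaving out any of 5 arrays ended the call, namely PIK3CA-mutant replicates 1 (0.127) and 2 (0.0749) and co-culture replicates 1 (0.0803), 2 (0.104) and 4 (0.0748). The CYP2J2 call was also lost with no filter (0.0521), without a trend of spread with signal (0.0522) and with a margin of 0.5 on the log2 scale.

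The P450 CYP4V2 and the transferases GSTT2 and GSTM4, which differed between the lines, lay near the PIK3CA-mutant level in the mixture although most of its cells were HER2-mutant. Co-culture minus PIK3CA-mutant on the log2 scale was -0.12 for CYP4V2 (95% interval -0.42 to 0.18, limma adjusted p = 0.623). It was 0.02 for GSTT2 (-0.22 to 0.26, adjusted p = 0.927), whose sign turned without PIK3CA-mutant replicate 1 or co-culture replicate 3, and -0.09 for GSTM4 (-0.38 to 0.20, adjusted p = 0.715), whose sign turned without co-culture replicate 1. These intervals bound the differences and do not show that the levels are equal.

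The co-culture was also set against the blend expected if each cell kept the level of its line, a linear-scale sum of 75% of the mean HER2-mutant signal and 25% of the mean PIK3CA-mutant signal. By limma with a standard error carried through the blend, 14 members were called, 8 above and 6 below it, beside 18.5% and 22.3% of all genes and 40.8% in either direction. The blend is built from the same single-culture arrays as the comparisons above. At least 1 away on the log2 scale were 0 members above and 6 below, beside 2.80% and 3.24% of all genes. These counts take the brightest probe set per gene, and the second probe set of GSTT2 lay 1.06 above the blend (limma adjusted p = 8.29e-08). The 6 below were CYP3A5, SULT1E1, CYP39A1, CYP4B1, CYP1B1 and GSTA4. SULT1E1 was expected at 9.91 and differed from that by -2.79 on the log2 scale (limma adjusted p = 1.31e-09). CYP3A5 was expected at 8.99, and with the co-culture at its background level the shortfall was at least 5.48-fold (adjusted p = 9.72e-14). The shortfall was at least 2.24-fold for CYP39A1 (adjusted p = 3.68e-10) and at least 1.30-fold for CYP4B1 (adjusted p = 1.68e-10). CYP1B1 was expected at 8.22 and GSTA4 at 8.0. Their fitted differences of -1.97 (adjusted p = 6.89e-08) and -1.45 (adjusted p = 2.67e-07) rest on co-culture signals that were above background on 1 and 2 of 4 arrays.

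Above the blend were CYP4V2 by 0.98 on the log2 scale (adjusted p = 1.38e-06), GSTO1 by 0.88 (1.17e-06), GSTT2 by 0.86 (3.39e-07) and GSTM4 by 0.58 (0.000545). These 4 genes were above background in all 3 groups. GSTO2 was above it by 0.46 (adjusted p = 0.0262) and SULT1A1 by 0.45 (0.0126). With the unresolved HER2-mutant signal set at its background level, GSTO2 lay 0.12 above the blend and SULT1A1 differed by -0.28, so the direction for SULT1A1 depends on a level the arrays did not measure. The call for GSTO2 was lost without PIK3CA-mutant replicate 1 (0.0734) or 3 (0.0613) or co-culture replicate 1 (0.114), and that for SULT1A1 without co-culture replicate 1 (0.0609). At a blend of 60% HER2-mutant cells, the difference was 0.46 for GSTO1 (adjusted p = 0.00393), -0.15 for GSTO2 (0.533) and 0.05 for SULT1A1 (0.834). CYP17A1 and CYP27B1 were called too, both below background in every group. GSTP1 did not pass, at 0.07 (95% interval -0.03 to 0.18).

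**Figure D4:**
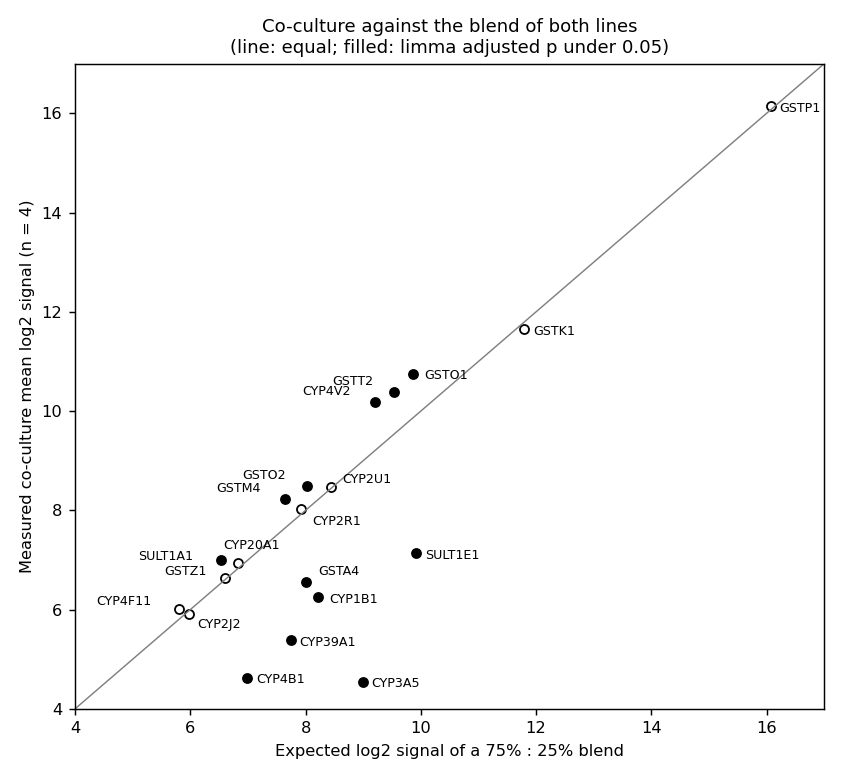
Each point is 1 of the 20 genes, with the log2 signal expected of a 75% to 25% blend of both lines on the x axis and the measured co-culture mean (n = 4) on the y axis, the line marks equality and filled points passed a limma adjusted p of 0.05. SULT1E1 (expected 9.91, measured 7.13) lies below the line and CYP4V2 (expected 9.20, measured 10.18) above it. The co-culture signals of CYP3A5, CYP39A1, CYP4B1, CYP4F11 and CYP2J2 were below background on every array, so their distances from the line are no measured folds.

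The regulators, cofactor suppliers and exporters around these enzymes were read from lists of the wider pathway. Of 5 measured genes of the aryl hydrocarbon receptor list, 2 rose and 3 fell in the HER2-mutant line relative to the other. The receptor AHR had means of 12.99 and 13.63 in the HER2-mutant and PIK3CA-mutant groups (log2 difference -0.64, limma adjusted p = 6.54e-06), and its partner ARNT differed by 0.96 (2.67e-08). Of the receptor's targets, TIPARP differed by 0.78 (3.67e-07) and NQO1, a quinone reductase also driven by NRF2, by -1.49 (8.2e-11). ALDH3A1 was below background in the HER2-mutant group and at 6.58 in the PIK3CA-mutant group (adjusted p = 7.24e-05). That call comes with no bound, since the HER2-mutant background level lies above the PIK3CA-mutant signal. Of 12 listed nuclear receptors of enzyme induction, 7 had a probe set in use, and NR1I2, RXRA and HNF4A had none. Of the 6 tested, RXRB (1.32, adjusted p = 1.86e-09) and PPARA (1.06, 1.82e-05) were higher in the HER2-mutant line. The vitamin D receptor VDR (-1.10, 8e-10) and PPARG, below background in that line (2.2e-11), were lower. For PPARG too there is no bound, as its PIK3CA-mutant signal of 6.75 lies under the HER2-mutant background level. Over the same HER2-mutant minus PIK3CA-mutant comparison, the list medians were -0.64 for the first list and -0.08 for the second, beside 0.05 over all genes.

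Of 8 electron donors listed, 4 had a probe set in use, and P450 reductase (POR) and FDXR had none. Of the 4 tested, 1 was increased and 2 were decreased in HER2-mutant cells. CYB5A, microsomal cytochrome b5, had a log2 difference of 2.3 (HER2-mutant minus PIK3CA-mutant, limma adjusted p = 1.9e-13), while its outer mitochondrial counterpart CYB5B differed by -1.38 (4.8e-09) and FDX1, adrenodoxin, by -0.79 (2.08e-06). The fourth gene tested, CYB5R3, did not pass. Of 6 genes that make or carry sugar and sulfate donors, UGP2 was higher (0.69, adjusted p = 8e-06) and PAPSS1 (-0.63, 0.000132), UGDH (-0.25, 0.0431) and PAPSS2, below background in both lines (0.015), were lower. In the co-culture UGDH, which makes UDP-glucuronic acid, was above both lines, by 0.74 against HER2-mutant (2.27e-06) and 0.49 against PIK3CA-mutant (0.000935). UGP2 went the other way and was below both lines there. It differed by -1.13 against HER2-mutant (limma adjusted p = 7.77e-09) and by -0.44 against PIK3CA-mutant (0.004).

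The glutathione list held genes of supply and of turnover together. Of its 8 genes tested, 5 were lower and 1 was higher in the HER2-mutant line, with a median of -0.71. The cystine transporter SLC7A11 was below background on every HER2-mutant array (mean 6.33) and at 10.16 in the PIK3CA-mutant line, at least 9.18-fold higher there (limma adjusted p = 1.34e-12). In the co-culture it was at 10.58, at least 12.2-fold above the HER2-mutant line (3.63e-13). Of the genes that turn glutathione over, GGCT differed by -2.34 (5.07e-10) and CHAC1 was at least 1.17-fold higher in the PIK3CA-mutant line (1.48e-05). Among the synthesis enzymes GSS differed by -0.76 (5.48e-06) and GCLC by -0.66 (3.82e-05), and glutathione reductase GSR was higher by 0.73 (4.56e-06). GCLM did not pass, at 0.13 (limma adjusted p = 0.458). In the co-culture 5 of the 8 were higher and 1 lower than in the HER2-mutant line, beside 24.9% and 26.0% of all genes.

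The conjugate exporters held the widest gap of these lists, with 4 of 6 tested lower and 0 higher in the HER2-mutant line. ABCC3, which exports glucuronides and other organic anions, was below background on every HER2-mutant array (mean 4.81) and at 13.09 in the PIK3CA-mutant line, at least 70.0-fold higher there (limma adjusted p = 2.31e-20). It was at 12.43 in the co-culture, at least 44.3-fold above the HER2-mutant line (1.77e-19) and 1.33 above the expected blend on the log2 scale (3.53e-06). ABCC4 differed by -0.93 (5.5e-06) and ABCC2 by -0.54 (0.0281) between the lines, and ABCG2 was called with at most 2 arrays above background in any group (1.75e-07). Of 11 microsomal transferases and other conjugating or hydrolysing enzymes tested, 6 had higher and 2 had lower signals in HER2-mutant cells. Of these, FMO4 (higher) and CES1 (lower) were above background on 0 arrays, and NAT1 (higher) on at most 2 of 4 in a group. The formaldehyde-glutathione dehydrogenase ADH5 was higher by 1.08 (1.07e-09), the nicotinamide methyltransferase NNMT by 0.99 (5.08e-07) and the microsomal glutathione transferase MGST1 by 0.60 (5.32e-09), while the epoxide hydrolase EPHX1 differed by -0.45 (4.44e-05). Against the HER2-mutant line, 7 of these 11 decreased and 1 increased in the co-culture, beside 26.0% and 24.9% of all genes, and the 7 again include FMO4.

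Retinoid handling genes, the substrate side of the CYP26 enzymes, had 1 of 8 tested increased and 4 decreased in HER2-mutant cells. The receptor RARG was higher by 0.58 (limma adjusted p = 2.57e-05). The retinoic acid carrier CRABP2 was below background in the HER2-mutant line and at 6.65 in the PIK3CA-mutant line (4.27e-10). Its call comes with no bound, since the HER2-mutant background level lies above that signal. The retinal oxidase ALDH1A3 differed by -0.99 (2.89e-06), RDH10 by -0.61 (0.00127) and RARA by -0.39 (0.016). These list counts stand beside the 30% higher and 29.5% lower of all genes in the same comparison.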

How the data were processed

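RNA from 12 cultures was measured on whole-transcript arrays, after purification on columns and labelling of 5 µg per culture, per the labels' protocols. Per the submitters' processing notes, the authors made the deposited log2 probe-set signals in Transcriptome Analysis Console. Its version, the background correction, the normalization and the genome build are not given in the sources used here. Precision is limited by having 4 arrays in a group. Labels put every array in a group, with 0 unassigned.

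Of 24351 probe sets, 17709 named for exactly 1 gene were used, the brightest per gene. Genes were tested that exceeded, on at least 4 of 12 arrays, the 30th percentile of that array's named probe sets. A linear model of 3 groups was fitted over 12758 genes in limma 3.58.1 (R 4.3.3), with a trend of spread with signal, two-sided contrasts and Benjamini-Hochberg adjustment, and tested on simulated data. The blend's standard error used delta-method weights. Bounds on the blend were added after its values were seen.

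The members and lists were chosen with earlier results of these data known. Named genes were every member above background in some group, the members with the largest called differences of at least 1 on the log2 scale (up to 8 per direction), 10 preset symbols of the family, and up to 4 genes per direction of each pathway list. Further members named because a call was lost or a comparison turned on them were chosen after their values were seen. Alternatives covered the filter, scaling, spread model, margin, background percentile, blend, replicate block and leaving out each array.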

Additional observations from a re-analysis of the deposited data

Results flagged for a closer look

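In 2 of the 60 groups of 4 arrays (20 genes in 3 groups), 1 array stood far from its group by Dixon's criterion, and chance flags about 1 group in 20. SULT1E1 on PIK3CA-mutant replicate 3 was the lowest of its group at 8.59, against 9.42 to 9.46 on the other arrays. Without that array SULT1E1 differed by 0.65 in HER2-mutant minus PIK3CA-mutant on the log2 scale (limma adjusted p = 0.025) and differed by -2.31 in co-culture minus PIK3CA-mutant (adjusted p = 3.5e-07). GSTT2 on PIK3CA-mutant replicate 1 was the lowest of its group at 10.2, against 10.4 to 10.45 on the others. Without it GSTT2 differed by -1.34 in HER2-mutant minus PIK3CA-mutant (adjusted p = 5.82e-09).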

How the results depend on the processing

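The count of members above background depended on the bar. At the 99th percentile of the negative controls it was 3 in the HER2-mutant group, 6 in the PIK3CA-mutant group and 5 in the co-culture. In any group it was 7. At the 30th percentile of each array the counts were 36, 38, 38 and 40 in the same order. CYP1B1, CYP39A1 and CYP4B1 exceeded the 99th percentile on no array, and CYP3A5 on HER2-mutant replicate 2 alone (10.04 against 9.23). These genes were then not above background in the HER2-mutant group, nor were CYP2J2 and CYP4F11 in the PIK3CA-mutant group. GSTO2 still was in the PIK3CA-mutant group. The bounds on folds use the lower percentile of the main setting, and bounds at the 99th were not computed. With a margin of 0.5 on the log2 scale, called members numbered 3 in place of 10 in co-culture minus PIK3CA-mutant and 9 in place of 14 against the blend, beside 3.44% and 7.93% of all genes in place of 25.7% and 40.8%. Leaving out 1 array at a time gave 20 to 22 members called in HER2-mutant minus PIK3CA-mutant, 17 to 21 in co-culture minus HER2-mutant, 7 to 11 in co-culture minus PIK3CA-mutant and 11 to 15 against the blend. Same-numbered arrays of different groups gave 12 correlations of -0.034 to 0.06, so the numbers were not taken as pairs. With the replicate number as a block, 21, 19, 10 and 14 members were called in the same order, as against 21, 18, 10 and 14. Of 62 pairs of a named member and a comparison, 51 were called. A call was itself a reason for a pair to be listed, so that count was largely set by the choice and carries no reading. Of 1314 recomputed values for these chosen pairs, 1262 kept direction and side of the threshold, 40 lost the call, 2 gained one and 10 changed sign. CYP20A1 in HER2-mutant minus PIK3CA-mutant turned to 0.007 with quantile normalization and 0.074 with median centring, and ran from -0.077 to 0.063 with 1 array left out. A blend of 60% HER2-mutant cells turned CYP4F11 to -0.39 and GSTO2 to -0.15. A blend of 90% moved CYP4F11 from 0.20 to 1.23 (adjusted p = 7.91e-07), a call gained on a co-culture signal below background, and 17 members were then called, beside 48.2% of all genes. In co-culture minus PIK3CA-mutant, GSTM4 was 0.001 without co-culture replicate 1, and GSTT2 ran from -0.033 to 0.068 with 1 array left out, below 0 without PIK3CA-mutant replicate 1 (-0.033) or co-culture replicate 3 (-0.03). The cause was not tested. Signal over background limits the set, since 63 of 83 genes were not resolved in any group.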
